A study of Mus musculus with 35 samples.

Results

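The genes described here encode 9 C-type lectin receptors of myeloid cells: Clec4e (Mincle), Clec4d (MCL), Clec4n (Dectin-2), Clec4a2, Clec4a3 and Clec4a1 (the dendritic cell immunoreceptor group), Clec5a (MDL-1), Clec7a (Dectin-1) and Clec12a (MICL). They were taken by symbol from a table of 19938 mouse genes, and each was measured by 1 probe set. The group was chosen by receptor family and by the measured rise of Clec4e and Clec4d from non-ventilated to ventilated lung on these same arrays. Differences from non-ventilated lung are therefore given for the 9 genes as a description, with no test. High against low stretch and hypercapnia against normocapnia were tested.

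C-type lectin receptors bind sugars, lipids and proteins on microbes and on damaged cells. Mincle, MCL and Dectin-2 have short tails and signal through the Fc receptor gamma chain, encoded by Fcer1g. MDL-1 signals through DAP12, encoded by Tyrobp, and DAP10, encoded by Hcst, whereas Dectin-1 carries its own activating motif and binds beta-glucan of fungal walls. All of these feed the kinase Syk and the adaptor Card9, which lead to NF-kappaB and to cytokine genes. MICL and the Clec4a2 product carry inhibitory motifs in their tails. In the lung these receptors are known from neutrophils, monocytes, macrophages and dendritic cells.

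RNA of whole lung was measured on 35 Affymetrix arrays, 1 per mouse, each an adult male of the inbred strain C57BL/6J weighing 20 to 25 g. The title of the series asks how hypercapnia, a raised CO2 level, alters lung injury caused by mechanical ventilation. Non-ventilated mice breathed room air on their own (5 arrays). Under low stretch, mice were ventilated for 3 h at 135 breaths per minute with tidal volumes of 10 mL/kg and 2 cmH2O of end-expiratory pressure. The 5 arrays called low stretch normocapnia are from mice given room air, and the 5 called low stretch hypercapnia from mice given a CO2 fraction of 0.12 in room air. Under high stretch, also for 3 h, tidal volumes were 35 to 40 mL/kg at 30 to 35 breaths per minute, with a peak pressure of 27 cmH2O, no end-expiratory pressure and an oxygen fraction of 0.75. The 10 high stretch normocapnia arrays had no added CO2, and the 10 high stretch hypercapnia arrays had a CO2 fraction of 0.12. High and low stretch thus differed in tidal volume, end-expiratory pressure, rate and oxygen together. All lungs had been lavaged before removal, also in the non-ventilated mice.

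Values are log2 signals, so a difference of 1 is a doubling, and they are compared between groups for 1 gene, not between genes. Array medians lay between 6.96 and 7.05 and no array copied another. The 12 lung epithelial and endothelial markers averaged between 11.83 and 12.12 on every array and were thus high on this scale. The mean of 21 neutrophil markers was 7.32 ± 0.50 (SD, n = 5) without ventilation, with 8.16 in replicate 5 against 6.91 to 7.40 in the other 4 arrays. Replicate 5 of the non-ventilated group thus stood apart in neutrophil transcripts, and mean differences from that group are given with and without it. In bulk tissue, fewer cells of a type and less RNA per cell cannot be told apart.

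All 9 genes lie on mouse chromosome 6. Clec4a1, Clec4a3, Clec4a2, Clec4n, Clec4d and Clec4e follow each other there, with only Clec4a4, Clec4b1 and Clec4b2 among the protein-coding genes between them. Clec12a and Clec7a lie 101 protein-coding genes further on and are separated by Clec12b, Clec1b, Clec9a and Clec1a, while Clec5a lies apart, 627 protein-coding genes before Clec4a1. Clec4a1, Clec4a2 and Clec4a3 are close copies of each other, and whether the probes of 1 also bind transcripts of another was not tested.

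The promoters below are those of the 3 genes whose level differed most between non-ventilated and ventilated lung (Clec4e, Clec4d, Clec5a) and of Clec7a, which did not follow them. Each is the 250 bases before the annotated start in RefSeq, on build GRCm38.p6, 5′ to 3′ on the strand of the gene. Clec4e is at chr6:123289872-123290121 (minus strand), Clec4d at chr6:123261857-123262106 (plus), Clec5a at chr6:40585806-40586055 (minus) and Clec7a at chr6:129472780-129473029 (minus). Capitals mark matches, on either strand, to letters bound by regulators of myeloid genes: GAGGAA, the PU.1 and ETS letters (TTCCTC on the other strand), and TTNNGCAA, the C/EBP letters.
Clec4e: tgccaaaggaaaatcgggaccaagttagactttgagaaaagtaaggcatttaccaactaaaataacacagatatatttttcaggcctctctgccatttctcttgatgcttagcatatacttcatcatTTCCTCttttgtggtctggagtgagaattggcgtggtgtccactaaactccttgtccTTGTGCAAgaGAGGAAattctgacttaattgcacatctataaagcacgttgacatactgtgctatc
Clec4d: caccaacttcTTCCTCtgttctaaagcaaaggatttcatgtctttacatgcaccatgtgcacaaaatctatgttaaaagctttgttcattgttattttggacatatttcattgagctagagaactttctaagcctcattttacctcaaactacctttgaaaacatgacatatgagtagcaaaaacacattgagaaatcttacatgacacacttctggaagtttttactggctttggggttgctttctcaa
Clec5a: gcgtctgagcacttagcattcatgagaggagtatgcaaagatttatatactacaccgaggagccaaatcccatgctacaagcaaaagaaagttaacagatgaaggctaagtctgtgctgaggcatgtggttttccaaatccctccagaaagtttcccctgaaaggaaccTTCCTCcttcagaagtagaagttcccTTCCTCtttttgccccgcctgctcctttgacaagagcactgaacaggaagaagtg
Clec7a: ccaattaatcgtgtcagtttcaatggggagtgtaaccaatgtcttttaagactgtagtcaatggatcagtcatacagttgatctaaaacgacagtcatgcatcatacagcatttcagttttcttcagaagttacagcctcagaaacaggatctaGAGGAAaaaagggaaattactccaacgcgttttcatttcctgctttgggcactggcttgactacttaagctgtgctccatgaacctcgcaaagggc
Promoters were found for 8 of the 9 genes, all but Clec4n. GAGGAA occurred in 6 of the 8, all but Clec4a2 and Clec4a3, and in 23.1% of 27018 mouse promoters of that length. TTNNGCAA occurred in the promoters of Clec4e, 66 bases before the start, and Clec12a, and in 9.56% of all promoters. The NF-kappaB letters, GGG and CC with any 5 bases between them, occurred only in Clec4a1 among the 8, against 45.4% of all promoters, and TGANTCA (AP-1) only in Clec12a, against 6.87%. No searched match overlapped another of a different motif. A match is a description of letters and not evidence of binding.

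Ventilated and non-ventilated lungs differed most in Clec4e and Clec4d, neighbours on the chromosome whose products, Mincle and MCL, can pair on the cell surface. Clec4e was at 6.67, 5.72, 5.63, 5.94 and 7.71 in the 5 non-ventilated arrays and at 10.97, 10.12, 8.60, 9.40 and 9.46 with low stretch in normocapnia. The lowest ventilated array stood above the highest non-ventilated one. The difference of the means was 3.38 (10.4-fold), the fifth largest of all genes, and 3.72 without non-ventilated replicate 5. In the order of the group means, high stretch normocapnia (9.80 ± 0.71, SD, n = 10) came first, followed by low stretch normocapnia (9.71 ± 0.89, n = 5), high stretch hypercapnia (9.67 ± 0.76, n = 10), low stretch hypercapnia (9.43 ± 0.91, n = 5) and no ventilation (6.33 ± 0.87, n = 5). The 4 ventilated groups lay within 1 SD of each other.

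Clec4d was at 7.00, 6.17, 6.30, 6.14 and 8.75 without ventilation and at 10.79, 10.32, 9.39, 10.11 and 9.93 with low stretch in normocapnia. Again no arrays overlapped, although non-ventilated replicate 5, the array with the most neutrophil transcripts of its group, was the nearest to them. The means differed by 3.24 (9.42-fold), and by 3.70 without that array. With low stretch in hypercapnia Clec4d was at 11.15, 9.68, 9.76, 9.98 and 9.52. The 10 high stretch arrays ran from 9.26 over a median of 10.01 to 10.87 in normocapnia and from 9.51 over 9.98 to 10.99 in hypercapnia. All 4 ventilated means lay between 10.02 and 10.11.

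Clec4n, the third of the gamma chain coupled receptors, differed far less. It was at 8.01, 8.28, 8.88, 8.54 and 8.76 without ventilation and at 9.64, 9.27, 8.64, 8.89 and 9.27 with low stretch in normocapnia, so that the groups overlapped. The difference of the means was 0.65 (1.57-fold), and 0.71 without non-ventilated replicate 5. The level was highest with high stretch in normocapnia, where the 10 arrays ran from 8.72 over 9.60 to 10.05.

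Clec5a, the DAP12 coupled receptor, followed in size. Without ventilation it was at 6.91, 6.55, 7.03, 6.67 and 7.79, with low stretch in normocapnia at 10.05, 9.09, 7.82, 7.91 and 8.90. The groups did not overlap, but replicates 3 and 4 of the ventilated group stood only just above non-ventilated replicate 5. The means differed by 1.76 (3.4-fold), or by 1.97 without non-ventilated replicate 5. Low stretch hypercapnia gave 10.04, 7.91, 8.04, 8.19 and 7.47, of which the last lay inside the non-ventilated range. At high stretch the arrays ran from 8.21 over a median of 9.04 to 10.27 in normocapnia and from 7.45 over 8.57 to 9.80 in hypercapnia.

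The Clec4a genes showed smaller differences. Clec4a1 was at 7.45, 6.85, 7.14, 6.58 and 7.87 without ventilation and at 8.99, 8.79, 7.57, 7.84 and 9.01 with low stretch in normocapnia. Replicates 3 and 4 of the ventilated group lay inside the non-ventilated range and the other 3 stood above it. The difference of the means was 1.26 (2.4-fold), and 1.44 without non-ventilated replicate 5. Clec4a2 was at 6.12, 5.96, 6.28, 6.20 and 6.81 without ventilation and at 7.43, 7.34, 6.55, 6.73 and 7.86 with low stretch, a difference of 0.91 (1.88-fold), with 2 ventilated arrays inside the non-ventilated range. Clec4a3 differed by 0.70 (1.62-fold), also with overlapping groups. Without non-ventilated replicate 5 these differences were 1.04 and 0.81.

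Clec7a and Clec12a did not share this pattern. Clec7a was at 8.72, 8.31, 8.67, 8.55 and 9.20 without ventilation and at 8.24, 8.18, 8.55, 8.96 and 8.95 with low stretch in normocapnia, a difference of -0.11. Clec12a was at 7.80, 7.76, 7.77, 7.02 and 8.22 without ventilation and at 7.95, 7.70, 7.39, 7.29 and 8.12 with low stretch, a difference of -0.03. Of the ventilated Clec7a arrays 2 lay below all non-ventilated ones and the other 3 among them, and all 5 ventilated Clec12a arrays lay inside the non-ventilated range. Without non-ventilated replicate 5 the differences were 0.02 and 0.10.

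**Figure D1:**
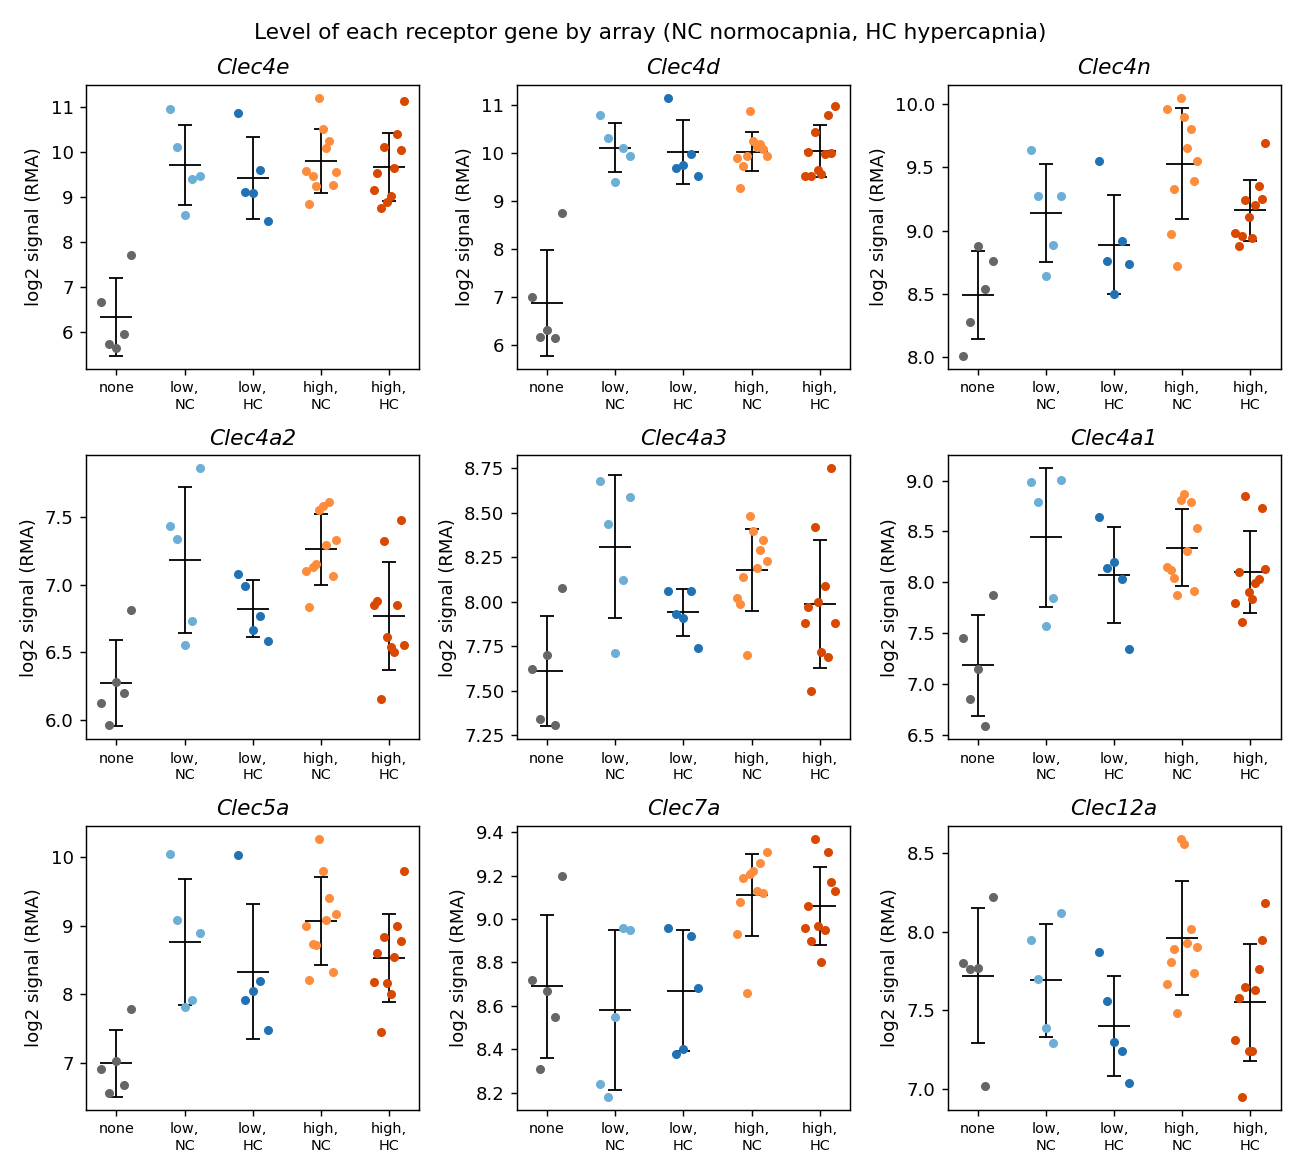
Log2 signal (vertical axis) of each of the 9 receptor genes on all 35 arrays, 1 point per array, in the 5 groups along the horizontal axis (none, no ventilation; low and high stretch; NC, normocapnia; HC, hypercapnia); the long bar is the group mean and the whiskers are 1 SD. Clec4e, Clec4d and Clec5a stand apart from the non-ventilated arrays with low stretch in normocapnia, and the Clec7a means are highest in the high stretch groups, at 9.11 and 9.06.

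All 4 comparisons with the non-ventilated group share its 5 arrays, so their values are given side by side only. The median difference of the 9 genes was 0.91 for low stretch normocapnia, 0.54 for low stretch hypercapnia, 1.04 for high stretch normocapnia and 0.67 for high stretch hypercapnia, where the medians of all genes were -0.01, 0, -0.03 and -0.04. Without non-ventilated replicate 5 the medians of the 9 genes were 1.04, 0.68, 1.12 and 0.73. With low stretch in normocapnia 3 of 9 genes lay wholly above the non-ventilated arrays (Clec4e, Clec4d, Clec5a), as did 4.65% of all genes. The counts were 2 of 9 with low stretch in hypercapnia (4.96% of all genes), 4 of 9 with high stretch in normocapnia (8.38%) and 3 of 9 with high stretch in hypercapnia (7.26%). A difference of at least 1 was reached by 4 of 9 genes with low stretch in normocapnia (0.722% of all genes), 3 with low stretch in hypercapnia (0.622%), 5 with high stretch in normocapnia (1.43%) and 3 with high stretch in hypercapnia (1.2%). Nothing is read from these counts, since the choice of genes used this contrast. In hypercapnia at low stretch the differences of Clec4e and Clec4d were 3.10 and 3.14, at high stretch 3.46 and 3.15 in normocapnia, and 3.34 and 3.17 in hypercapnia. Without non-ventilated replicate 5 these were 3.44 and 3.61, 3.81 and 3.62, and 3.68 and 3.64.

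Markers of several cell types moved with these differences. Of 21 neutrophil markers 15 rose with low stretch in normocapnia and none fell (limma, adjusted p under 0.05, as did 6.63% of all genes upward), among them Mmp8 by 4.21 ± 0.34 (SE) and Il1r2 by 4.07 ± 0.32. The mean of the list was 6.91 to 8.16 on the non-ventilated arrays and 8.73 to 9.32 with low stretch in normocapnia, 8.47 to 9.71 with low stretch in hypercapnia, 8.66 to 9.47 with high stretch in normocapnia and 8.53 to 9.59 with high stretch in hypercapnia. Of 14 monocyte markers 4 rose (7 without low stretch normocapnia replicate 3), led by Vcan, by 2.11 ± 0.38, and the mean of that list was 8.14 to 8.87 on the non-ventilated and 8.53 to 9.38 on the low stretch normocapnia arrays. The 13 alveolar macrophage markers averaged 9.07 ± 0.20 (SD, n = 5) and 9.09 ± 0.13 in those groups, and 1 of them fell (Car4). Of 9 interstitial macrophage markers 3 rose (F13a1, also a monocyte marker, Cd163 and Lyve1), and that mean was 9.00 to 9.40 on the non-ventilated and 9.38 to 9.57 on the low stretch normocapnia arrays. All 11 B cell markers fell, with a median change of -1.06, and their mean went from 7.67 to 8.30 without ventilation to 6.54 to 7.04. Of 12 T and NK cell markers 5 fell (3 without non-ventilated replicate 3 or low stretch normocapnia replicate 3 or 4), and of 14 dendritic cell markers 4 fell (2 without non-ventilated replicate 1 or 2). Of 12 lung epithelial and endothelial markers 4 fell and none rose (2 fell in a fit of the compared groups only). Their mean was 12.06 to 12.12 on the non-ventilated and 11.89 to 11.99 on the low stretch normocapnia arrays. A log2 array signal has no true 0, so no marker can be called absent. The part of these cells in the receptor differences was not tested.

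High against low stretch changed 1 of the 9 genes, Clec7a, and in both gases. With low stretch in normocapnia its 5 arrays were between 8.18 and 8.96, and with high stretch 10 arrays ran from 8.66 over a median of 9.16 to 9.31. Of the high stretch arrays 8 stood above every low stretch array. The change was 0.53 ± 0.13 (SE, 95% interval 0.27 to 0.80), a 1.45-fold rise with an adjusted p of 0.00354 in limma. Among all genes 18.3% passed in this comparison, 8.72% upward, so that 1 of 9 is near the background. The call held in each fit without 1 array and in each other setting tried, with changes from 0.44 to 0.63.

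In hypercapnia Clec7a was at 8.96, 8.38, 8.40, 8.92 and 8.68 with low stretch, and from 8.80 over 9.02 to 9.37 with high stretch. Of the 10 high stretch arrays 7 were above all 5 low stretch arrays. The rise was 0.40 ± 0.13 (interval 0.13 to 0.66) with an adjusted p of 0.0496 in limma, and 10.1% of all genes passed, 5.43% upward. Those were 2017 genes, and 1278 without low stretch hypercapnia replicate 5. The adjusted p was at the threshold: it was above 0.05 in 23 of the 35 fits that left out 1 array, and ran from 0.0268 to 0.18 over the 35, with changes from 0.32 to 0.47. Those fits left out non-ventilated replicates 1 and 3, low stretch normocapnia replicate 3, low stretch hypercapnia replicates 2, 3 and 5, each high stretch normocapnia replicate but 4, and each high stretch hypercapnia replicate but 3 and 6. Without low stretch hypercapnia replicate 2 the change was 0.32 and the adjusted p 0.18.

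The order of the 5 Clec7a means was high stretch normocapnia (9.11 ± 0.19, SD, n = 10), high stretch hypercapnia (9.06 ± 0.18, n = 10), no ventilation (8.69 ± 0.33, n = 5), low stretch hypercapnia (8.67 ± 0.28, n = 5) and low stretch normocapnia (8.58 ± 0.37, n = 5). The first pair of neighbours did not differ beyond their spread, nor did the last 3 groups. Of 21 neutrophil markers none passed in limma beside this rise in either gas, and none had an unadjusted p under 0.05. Their mean was 9.04 ± 0.24 (SD) at low and 9.08 ± 0.24 at high stretch in normocapnia. In hypercapnia it was 8.86 ± 0.49 and 8.98 ± 0.34. The median changes were -0.02 and 0.11, and the lack of calls does not show that the levels were equal. The alveolar macrophage markers, among which 1 of 13 rose in normocapnia (Pparg, by 0.26 ± 0.09), averaged 8.92 to 9.28 on the low and 8.94 to 9.39 on the high stretch arrays in normocapnia. Pparg did not pass in fits that left out replicate 1, 2, 3 or 4 of low stretch normocapnia or replicate 3, 5, 7, 8, 9 or 10 of high stretch normocapnia, and 3 of 13 rose without high stretch normocapnia replicate 2. In hypercapnia they averaged 8.90 to 9.25 and 9.09 to 9.41, and none of 13 passed (3 had an unadjusted p under 0.05). Of 14 monocyte markers 1 rose in normocapnia, Nr4a1, which is also an immediate early gene, by 1.68 ± 0.27. In hypercapnia 2 of 14 rose, Nr4a1 by 1.5 ± 0.27 and Adgre4 by 0.57 ± 0.17 (1 of 14 without low stretch hypercapnia replicate 3 or 5), and 5 had an unadjusted p under 0.05.

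B cell markers moved most beside the Clec7a rise. In normocapnia 7 of 11 rose, with a median change of 0.38, and their mean was 6.54 to 7.04 on the low and 6.90 to 7.37 on the high stretch arrays. That count was 4, 3 and 2 without low stretch normocapnia replicates 1, 2 and 4. In hypercapnia 5 of 11 rose, with a median of 0.36, and the mean was 6.30 to 6.80 and 6.67 to 7.26. That count was 2 without low stretch hypercapnia replicate 5 and 8 without high stretch hypercapnia replicate 6 or 9. Of 14 dendritic cell markers 2 rose in normocapnia, the chemokine genes Ccl17 by 0.73 ± 0.17 and Ccl22 by 0.30 ± 0.10, and none passed in hypercapnia in limma (3 had an unadjusted p under 0.05). The dendritic count was 1 without low stretch normocapnia replicate 2, 3 or 4 or high stretch normocapnia replicate 1, 6 or 8. Of 12 T and NK cell markers Cd2 rose, by 0.38 ± 0.10 in normocapnia and 0.36 ± 0.10 in hypercapnia, and of 9 interstitial macrophage markers none passed in either gas in limma (0 and 1 had an unadjusted p under 0.05). With 1 array left out the T and NK count ran from 1 to 4 in normocapnia, highest without low stretch normocapnia replicate 5 and at 2 without low stretch hypercapnia replicate 4, high stretch normocapnia replicate 9 or high stretch hypercapnia replicate 8. In hypercapnia it was 0 without low stretch hypercapnia replicate 1 or 3 and 2 without replicate 4. The part of these cells in the Clec7a rise was not tested.

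The other 8 genes did not pass between low and high stretch. Clec4n came nearest, with 0.39 ± 0.19 (interval 0.01 to 0.77, adjusted p 0.163 in limma) in normocapnia, where 5 of 10 high stretch arrays were above all low stretch ones, and 0.27 (-0.12 to 0.65) in hypercapnia. Clec5a gave 0.32 (-0.44 to 1.07) and 0.20 (-0.55 to 0.95), and Clec12a 0.27 (-0.12 to 0.65) and 0.15 (-0.24 to 0.53). Clec4e and Clec4d, the genes furthest above the non-ventilated level, gave 0.09 (-0.75 to 0.92) and -0.08 (-0.74 to 0.57) in normocapnia, and 0.24 (-0.59 to 1.07) and 0.03 (-0.63 to 0.68) in hypercapnia. Intervals this wide do not show that the levels were equal. Clec4a2, Clec4a3 and Clec4a1 lay between -0.13 and 0.08 in both gases. The median over the 9 genes was 0.09 in normocapnia and 0.15 in hypercapnia, with -0.02 and -0.03 over all genes.

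**Figure D2:**
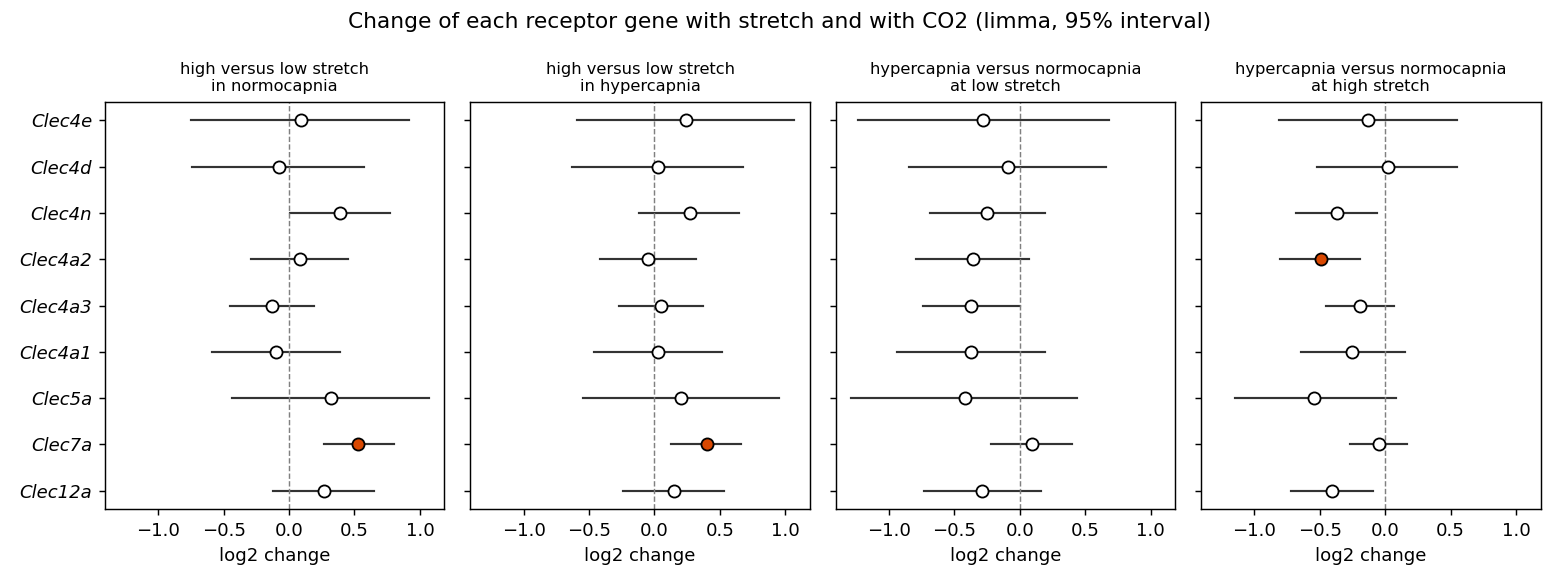
Log2 change of the 9 receptor genes (rows) in the 4 tested comparisons (panels), with the limma 95% interval as a line; filled points had an adjusted p under 0.05 over all 19938 genes. Only Clec7a is filled for high against low stretch, at 0.53 and 0.40, and only Clec4a2 for hypercapnia at high stretch, at -0.49.

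Hypercapnia at high stretch went with lower Clec4a2, one of the inhibitory receptors. The 10 normocapnia arrays ran from 6.83 over a median of 7.22 to 7.61, and the 10 hypercapnia arrays from 6.15 over 6.73 to 7.48. Of the hypercapnia arrays 5 lay below every normocapnia array while replicates 4 and 9 stood at 7.32 and 7.48, above the normocapnia median. The fall was 0.49 on the log2 scale, a change of -0.49 ± 0.15 (SE, interval -0.80 to -0.19), or 1.41-fold, with an adjusted p of 0.0434 in limma. In this comparison 5.56% of all genes passed, 3.07% downward. The adjusted p rose above 0.05 in 15 of the 35 fits that left out 1 array, and ran from 0.0134 to 0.0925 with changes from -0.57 to -0.42. Those fits left out high stretch normocapnia replicates 1, 3, 5, 6, 7, 8 and 10 and high stretch hypercapnia replicates 1, 2, 3, 5, 6, 7, 8 and 10. Without high stretch hypercapnia replicate 3, the lowest array, the change was -0.42 and the adjusted p 0.0925.

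The other genes did not pass at high stretch. Clec12a, the other receptor with an inhibitory motif, differed by -0.41 ± 0.15 (interval -0.72 to -0.09, adjusted p 0.128 in limma), Clec4n by -0.37 ± 0.15 (-0.68 to -0.06, adjusted p 0.171) and Clec5a by -0.54 ± 0.30 (-1.15 to 0.08, adjusted p 0.378). Clec12a ran from 7.48 over 7.89 to 8.59 in normocapnia and from 6.95 over 7.60 to 8.18 in hypercapnia. In Clec12a and in Clec5a 4 of 10 hypercapnia arrays lay below all normocapnia arrays, and in Clec4n none did. Clec4a1 and Clec4a3 differed by -0.25 and -0.19. Clec4e (-0.13, interval -0.81 to 0.55), Clec4d (0.02, -0.52 to 0.55) and Clec7a (-0.05, -0.27 to 0.17) were nearest to 0. In all, 1 of the 9 genes was above 0, Clec4d, as were 47% of all genes. The 9 genes were correlated within groups (median r of 0.63 over 36 pairs), so their signs are not independent.

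The cell markers that passed beside the fall in Clec4a2 went in both directions. The median change was -0.15 over the monocyte, -0.13 over the B cell and -0.07 over the neutrophil markers. It was -0.05 over the dendritic cell and -0.02 over the T and NK cell markers. Alveolar and interstitial macrophage markers had medians of 0.01 and 0.02, and all genes of -0.01. The monocyte marker mean was 8.91 to 9.82 in normocapnia and 8.71 to 9.39 in hypercapnia at high stretch, and 1 of 14 markers fell, Cx3cr1, by 0.46 on the log2 scale (2 fell without high stretch hypercapnia replicate 7). The neutrophil marker mean was 8.66 to 9.47 and 8.53 to 9.59, with none of 21 passing in limma and 4 with an unadjusted p under 0.05. Of 13 alveolar macrophage markers 1 rose, Fabp5, by 0.42 ± 0.08 (SE), and their mean was 8.94 to 9.39 and 9.09 to 9.41. The interstitial macrophage marker mean was 9.28 to 9.64 and 9.37 to 9.75, with none of 9 passing in limma and 2 with an unadjusted p under 0.05. Xcr1, 1 of 14 dendritic cell markers, changed by -0.35 ± 0.06, and Ncr1, 1 of 12 T and NK cell markers, by -0.73 ± 0.14 (2 of 12 fell without high stretch normocapnia replicate 9). None of 11 B cell markers passed in limma, and 3 had an unadjusted p under 0.05. The part of these cells in the Clec4a2 fall was not tested.

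At low stretch none of the 9 genes passed between hypercapnia and normocapnia in limma, none had an unadjusted p under 0.05, and 0.115% of all genes passed. Those were 23 genes, and 3 to 7 in fits that left out replicate 3, 4 or 5 of low stretch normocapnia, or 1, 3 or 4 of low stretch hypercapnia, 14 without low stretch hypercapnia replicate 5 and 36 without high stretch hypercapnia replicate 8. Clec4a2 differed by -0.36 (interval -0.79 to 0.07), Clec4a1 by -0.37 (-0.94 to 0.19), Clec4a3 by -0.37 (-0.74 to 0) and Clec5a by -0.42 (-1.29 to 0.44). Only Clec7a was above 0, at 0.09 (-0.22 to 0.40), against 52.4% of all genes, and the signs of these correlated genes are again not independent. The effect of CO2 on Clec4a2 at low stretch thus has an interval that holds its effect at high stretch, and the difference of both effects was -0.13 ± 0.26 (SE, adjusted p 0.997). For this interaction 0 of the 9 genes passed, as did 0 of all 19938 genes, with 0 and 893 at an unadjusted p under 0.05 (limma).

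Within the groups the receptor genes rose and fell together from mouse to mouse. After each group mean was removed, the correlation over the 35 arrays lay between 0.29 and 0.93 for the 36 pairs, with a median of 0.63. These are descriptions without a test, and the arrays share cell makeup as well as any common control. Clec4e went with Clec5a (r = 0.93) and with its neighbour Clec4d (0.91). The 3 Clec4a genes went together, at 0.85 for Clec4a2 and Clec4a1, 0.84 for Clec4a3 and Clec4a1 and 0.82 for Clec4a2 and Clec4a3. Clec12a was at 0.81 with Clec5a, 0.80 with Clec4a1 and 0.79 with Clec4e. Clec7a was least like the rest over the 35 arrays, at 0.29 to 0.49. Over the 20 high stretch arrays alone it was not, at 0.53 to 0.71. There some pairs without it were lower, among them Clec4d and Clec4a3 at 0.30 and Clec4n and Clec4a2 at 0.39.

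**Figure D3:**
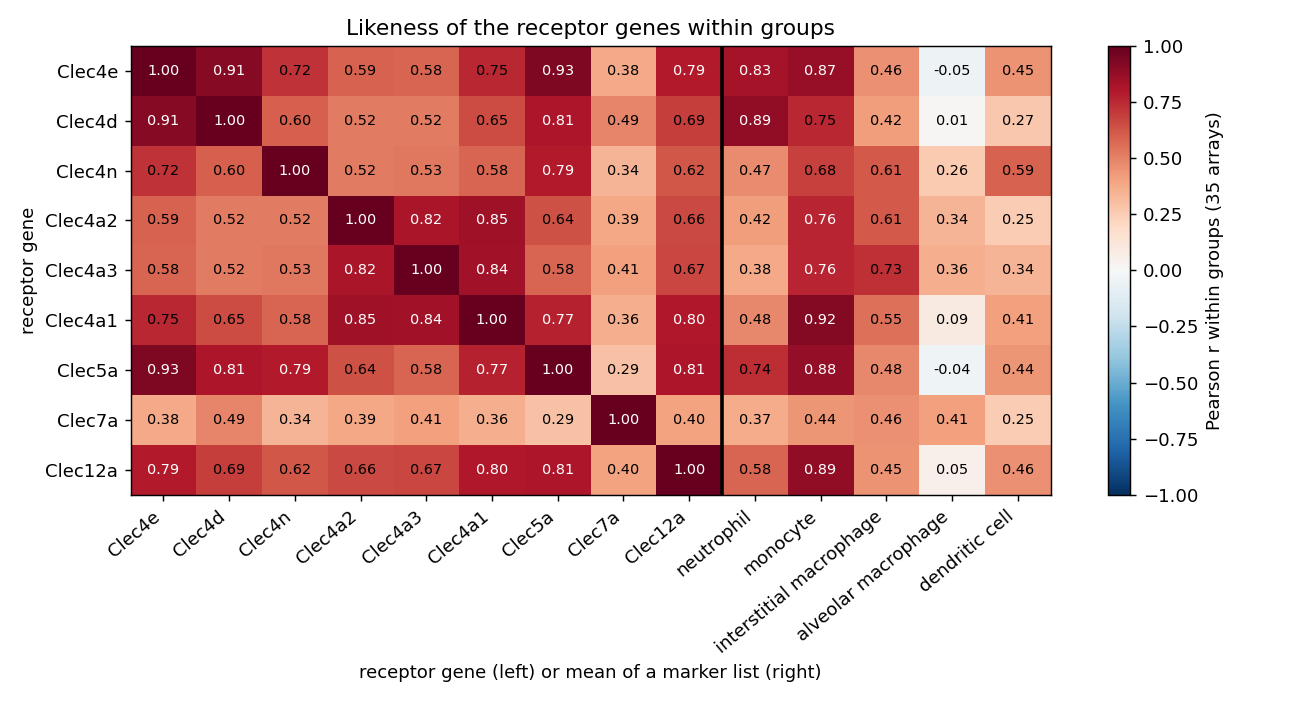
Pearson correlation, after the mean of each group was removed, between the 9 receptor genes (left block) and between each gene and the mean of 5 cell marker lists (right block), over 35 arrays; colour and number both give r. Clec4e is at 0.91 with Clec4d, 0.93 with Clec5a and 0.79 with Clec12a. The 3 Clec4a genes form a dark block, and the Clec7a row is pale, at 0.29 to 0.49 with the other receptors.

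The receptors also differed in how they went with the cell markers. Clec4d was most like the neutrophil marker mean (r = 0.89), with Clec4e at 0.83, and Clec4a1 (0.92), Clec12a (0.89), Clec5a (0.88) and Clec4e (0.87) were close to the monocyte marker mean, with Clec4a2 and Clec4a3 at 0.76 and Clec4d at 0.75. The alveolar macrophage marker mean gave between -0.05 (Clec4e) and 0.41 (Clec7a). Clec7a was at 0.49 with the T and NK cell, 0.46 with the interstitial macrophage and 0.44 with the monocyte marker mean. Over the 20 high stretch arrays it was at 0.73 with the monocyte and 0.39 with the alveolar macrophage marker mean.

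Other genes were ranked by the same within-group correlation, but not all of them. The ranking passed over unnamed gene models and clones, small and ribosomal RNAs, odorant and pheromone receptors, and gene pieces of antibodies and T cell receptors. "Most like" therefore holds only among the genes kept. Clec4d was most like Ccr1, a chemokine receptor (r = 0.95), and Mmp8, the neutrophil collagenase (0.94). Clec4e was most like Slfn2, Fgr and Mefv (0.96 each); Fgr is a Src family kinase of myeloid cells and Mefv encodes pyrin. Clec5a was most like Fcer1g, the Fc receptor gamma chain (0.97). Clec4n was most like Snx10 (0.86) and the toll-like receptor gene Tlr2 (0.83). For Clec4a2 these were Ms4a4a (0.87), Tgfbi and F13a1 (0.86 each), for Clec4a1 Apobec1, Ms4a6c and Ms4a4a (0.92 each), and for Clec4a3 Gpr141 (0.88) and Adgre1, a macrophage surface gene (0.86). Clec12a was most like Cybb, a subunit of the phagocyte oxidase (0.88). Clec7a had weaker partners, Cd101 (0.76) and the hyaluronan receptor gene Cd44 (0.74).

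**Figure D4:**
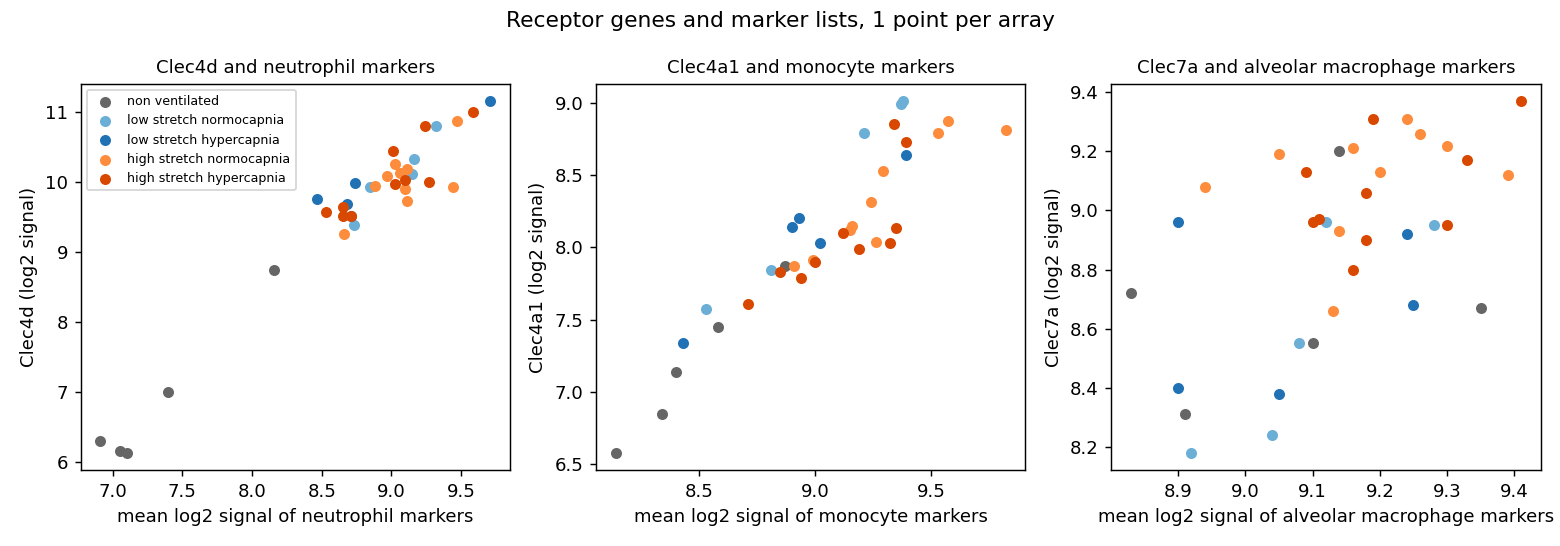
Log2 signal of Clec4d, Clec4a1 and Clec7a (vertical axes) against the mean log2 signal of neutrophil, monocyte and alveolar macrophage markers (horizontal axes), 1 point per array, coloured by group. The non-ventilated array at 8.16 on the neutrophil axis is also the one with the highest Clec4d of its group, 8.75, and the Clec7a means of the high stretch groups are 9.11 and 9.06, where the alveolar macrophage marker means are 9.18 and 9.20 at high and 9.09 and 9.07 at low stretch.

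The adaptors were followed next, from lists of partner genes. With low stretch in normocapnia 4 of 15 adaptor and kinase genes rose and 1 fell (limma), where 6.63% of all genes rose and 5.17% fell. Fcer1g went from 10.11 ± 0.25 to 10.96 ± 0.36 (SD, n = 5 each), a rise of 0.85 ± 0.18 (SE) with an adjusted p of 0.00114, and Tyrobp from 8.95 ± 0.40 to 9.78 ± 0.19, a rise of 0.82 ± 0.17. Fgr rose by 1.10 ± 0.24 and the exchange factor gene Vav1 by 0.76 ± 0.20, while Src fell by 0.23 on the log2 scale. Hcst, the DAP10 gene, did not pass (0.00 ± 0.09), nor did the kinase gene Syk (0.42 ± 0.18, adjusted p 0.139), both named outside the rule for named genes. High stretch against low stretch in normocapnia raised 2 of 15, Src by 0.39 ± 0.05 and Fyn by 0.31 ± 0.06, and left Fcer1g at -0.02 ± 0.16 and Tyrobp at 0.13 ± 0.15. With hypercapnia at high stretch none of 15 passed in limma and 1 had an unadjusted p under 0.05.

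Card9 and NF-kappaB genes rose with high against low stretch in both gases. In normocapnia 7 of 15 rose and none fell, where 18.3% of all genes passed, with a median change of 0.27 over the list and -0.02 over all genes. Bcl10, the partner of Card9, went from 8.36 ± 0.10 (SD, n = 5) to 8.86 ± 0.18 (n = 10), Malt1 rose by 0.49 ± 0.09 (SE), and Relb and Nfkb2, genes of the second NF-kappaB branch, by 0.45 ± 0.11 and 0.50 ± 0.13. In hypercapnia 5 of 15 rose and 1 fell, where 5.43% of all genes rose and 4.69% fell, with Rela up by 0.48 ± 0.06 and Malt1 up by 0.38 ± 0.09. Low stretch in normocapnia raised 4 of 15 against no ventilation and lowered Nfatc1. The count that rose was 1 without low stretch normocapnia replicate 1 and 2 without non-ventilated replicate 2 or 3. Nlrp3, which encodes an inflammasome sensor, rose by 0.62 ± 0.19 and Card9 itself by 0.29 ± 0.10 (adjusted p 0.0464). In hypercapnia at high stretch none of 15 passed in limma, with 2 at an unadjusted p under 0.05.

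The cytokine and early genes that the Card9 route can induce, which many other routes also induce, rose with high stretch as well. In normocapnia 7 of 16 rose and none fell, where 8.72% of all genes rose and 9.56% fell. Il6 went from 4.40 ± 0.15 (SD, n = 5) to 7.70 ± 0.66 (n = 10), and its lowest high stretch array, at 6.62, was above the highest low stretch one, at 4.58. Egr2 rose by 2.29 ± 0.18 (SE), the cyclooxygenase gene Ptgs2 by 2.14 ± 0.23 and the chemokine gene Ccl3 by 1.65 ± 0.35. In hypercapnia 6 of 16 rose, Il6 by 2.72 ± 0.24, where 5.43% of all genes rose. Low stretch in normocapnia raised 2 of 16 against no ventilation, Il1b by 2.19 ± 0.36 and Ptgs2 by 0.93 ± 0.26 (1 of 16 without low stretch normocapnia replicate 1). Over all genes 6.63% rose there. Hypercapnia at high stretch lowered 2 of 16, Ccl2 by -0.83 ± 0.18 and Egr2 by -0.56 ± 0.14, where 3.07% of all genes fell.

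Among brakes of the pathway, phosphatases and feedback inhibitors, 4 of 11 rose with low stretch in normocapnia, where 6.63% of all genes rose. Socs3, a feedback inhibitor of cytokine signalling, went from 7.79 ± 0.06 to 9.23 ± 0.37 (SD, n = 5 each), and Cblb, a ubiquitin ligase that acts on Syk, rose by 0.47 ± 0.07 (SE). Of regulators of the receptor genes 3 of 10 rose and 3 fell in that comparison (1 fell without non-ventilated replicate 1). Over all genes 6.63% rose and 5.17% fell. The PU.1 gene Spi1 rose by 0.77 ± 0.18, Cebpd by 0.66 ± 0.14 and Cebpb by 0.51 ± 0.14, and Klf4 fell by 0.55 on the log2 scale. High against low stretch in normocapnia raised 8.72% of all genes and 4 of the 10 regulators (2 with the replicate number as a block). Among them were Cebpd, by 0.49 ± 0.13, and Cebpb, by 0.47 ± 0.12, while Spi1 was at 0.16 ± 0.15. Spi1, Cebpb and Cebpd are also expressed by neutrophils and monocytes. With low stretch in normocapnia 15 of 21 neutrophil and 4 of 14 monocyte markers rose. With high against low stretch in normocapnia 0 of 21 and 1 of 14 did. The part of these cells in the regulator changes was not tested.

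Of 7 measured genes of proteins known as ligands of receptors of this family, 3 rose and 1 fell with high stretch in normocapnia, where 8.72% of all genes rose and 9.56% fell. Anxa1, one of the annexins that Dectin-1 can bind, went from 12.33 ± 0.19 (SD, n = 5) to 13.03 ± 0.08 (n = 10) and fell by 0.24 on the log2 scale with hypercapnia at high stretch. Sap130, a nuclear protein of dying cells that Mincle senses, changed by -0.14 ± 0.05 (SE) with high stretch and by 0.15 ± 0.04 with hypercapnia at high stretch. The first Sap130 call was lost in fits without high stretch normocapnia replicates 1, 3, 5, 7 or 10 or low stretch normocapnia replicates 2, 3 or 4, and the second in fits without high stretch hypercapnia replicate 2 or high stretch normocapnia replicates 1 or 5.

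Among 9 other lectin genes of the same chromosome region, 2 rose with low stretch in normocapnia, where 6.63% of all genes rose. Clec12b, which lies between Clec12a and Clec7a and encodes an inhibitory receptor, went from 7.90 ± 0.13 to 9.23 ± 0.32 (SD, n = 5 each), a 2.52-fold rise with an adjusted p of 2.02e-07 in limma, and the ranges of 7.71 to 8.00 and 8.92 to 9.76 did not overlap. Clec1b, the platelet receptor CLEC-2, rose by 0.40 ± 0.12 (SE) and was not called without low stretch normocapnia replicate 3 or non-ventilated replicate 4 or 5. The copies Clec4a4, Clec4b1 and Clec4b2, which lie between Clec4a3 and Clec4n, did not pass, at 0.35 ± 0.17, 0.43 ± 0.19 and 0.20 ± 0.12. With high stretch in normocapnia Olr1, the LOX-1 receptor of oxidized lipoprotein and the only 1 of 9 to pass, rose by 0.45 ± 0.10. Over all genes 18.3% passed there. Hypercapnia at high stretch lowered 2 of 9, where 3.07% of all genes fell. These were Clec12b, by -0.48 ± 0.11 (adjusted p 0.00577 in limma), and Olr1, by -0.31 ± 0.08.

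Of 28 other innate receptors of myeloid cells 17 rose with low stretch in normocapnia and none fell, where 6.63% of all genes rose and 5.17% fell. The median was 0.94, beside 0.91 for the 9 lectin receptors. Siglece and Tlr13 rose by 1.90 ± 0.22 and 1.90 ± 0.24, the scavenger receptor gene Msr1 by 1.79 ± 0.47 and Trem1 by 1.82 ± 0.33. With high against low stretch in normocapnia 1 of 28 rose, Tlr2, by 0.76 ± 0.24, where 8.72% of all genes rose. None of 28 rose without low stretch normocapnia replicate 3 or 4 or high stretch normocapnia replicate 5, and 2 rose without low stretch normocapnia replicate 1 or high stretch hypercapnia replicate 10. In hypercapnia none of 28 passed (4 at an unadjusted p under 0.05, limma). Of 34 further C-type lectin genes, whose positions were not examined, 2 rose and 6 fell with low stretch in normocapnia. The falls numbered 3 without low stretch normocapnia replicate 5 or non-ventilated replicate 2 or 3. Clec14a, an endothelial lectin, fell by 1.07 on the log2 scale and the B cell lectin Fcer2a by 1.41, while the myeloid lectin Cd302 rose by 0.56 ± 0.14. The median over these 34 genes was -0.06.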

How the data were processed

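The authors deposited log2 signals made with RMA, a method that corrects background, normalizes arrays to one distribution and summarises probes. Affymetrix Expression Console and Partek are named, per the submitters' processing notes, with no version or genome build. Quantile normalization sets all arrays to a like distribution, so changes are relative to the other genes of the array. The labels call the arrays biological replicates, and p-values measure the spread between mice. No batch is given in the labels.

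Of 35557 probe sets, 21789 carry 1 gene symbol in the platform annotation, 1621 several and 12147 are not listed in it. Each gene was represented by its probe set of highest average signal, which left 19938 genes with no filter on level. A model with 1 mean per group, on the 35 arrays together, was fitted by lmFit and eBayes of limma 3.58.1 (R 4.3.3). Tests were two-sided, p-values were adjusted by Benjamini-Hochberg over all genes of a comparison, and 0.05 was the threshold. Folds are 2 to the power of the log2 change. Correlations used residuals from the group means. Sequences were read with Python 3.11.15. The procedure was run on simulated data in which genes varied independently, and only recovery of changes of 2 on the log2 scale was required. The receptor calls are smaller changes, and this check does not bear on them.

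The receptors and the gene lists were chosen with earlier results of these data known. Named genes are the 9 receptors and up to 4 genes per list and comparison with the largest changes among those that passed. Up to 3 genes most like each receptor, among the genes kept for that ranking, were named too. Hcst, Syk, Clec4a4, Clec4b1 and Clec4b2 were added after their values were seen, and some genes named in 1 comparison are also given in others. The number of arrays limits the precision.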

Additional observations from a re-analysis of the deposited data

Results flagged for a closer look

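Replicate 1 of the low stretch hypercapnia group stood apart from the other 4 arrays of its group in both genes given here. Its Clec4d level was 11.15, and the others lay between 9.52 and 9.98. Its Clec5a level was 10.04, and the others lay between 7.47 and 8.19. The gap to the nearest array exceeded the 95% limit of Dixon's test for 1 extreme value, in 2 of 45 groups of values examined, where chance alone marks about 1 in 20. The same array had the highest neutrophil marker mean of its group, 9.71, and the part of neutrophil content in its receptor levels was not tested.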

How the results depend on the processing

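Array weights were fitted with limma's arrayWeights, and the other settings left out 1 array in turn, fitted the arrays of the compared groups only, added the replicate number as a block, or used the trend and robust options of eBayes. Others kept genes above the median level, took probe sets singly or averaged by gene, centred each array on its median, or repeated the quantile normalization. Of the values of the receptors under these settings, 3803 stayed alike, 56 changed sign in tested comparisons, 46 moved, 43 calls were lost and 3 were gained. In tested comparisons alike means the same direction and side of the threshold, and for counts a change within a set factor. For differences from non-ventilated lung, which have no threshold, it means a shift below the SD within groups, whatever the sign. Counts and differences beyond these limits are those that moved.

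The number of receptors that passed for high against low stretch in hypercapnia was 0 with array weights, with the trend and robust options and with the second quantile normalization (Clec7a 0.41, 0.40 and 0.38, adjusted p 0.0524, 0.0528 and 0.063), and 0 to 1 without 1 array. In normocapnia it was 2 with array weights, which added Clec4n (0.49, adjusted p 0.0271). For hypercapnia at high stretch it was 3 with array weights, which added Clec4n (-0.47, adjusted p 0.0232) and Clec12a (-0.51, adjusted p 0.0153), 0 with the trend and robust options (Clec4a2 -0.49, adjusted p 0.0504), 0 when low genes, Clec4a2 with them, were left out, and 0 to 1 without 1 array. The cause of these moves was not tested, except that Clec4a2 fell below that level.

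Signs that turned belonged to changes that did not pass. With array weights Clec4a1 gave 0.02 for high stretch in normocapnia, Clec4d -0.15 for hypercapnia at high stretch and Clec4e -0.01 for the interaction. Without 1 array, high against low stretch in normocapnia ran from -0.19 to 0.40 for Clec4e, from -0.26 to 0.09 for Clec4d, from -0.07 to 0.25 for Clec4a2 and from -0.32 to 0.04 for Clec4a1. In hypercapnia the ranges were 0 to 0.60 for Clec4e, -0.10 to 0.31 for Clec4d, -0.13 to 0.02 for Clec4a2, -0.03 to 0.10 for Clec4a3, -0.16 to 0.17 for Clec4a1 and -0.01 to 0.63 for Clec5a. For hypercapnia at low stretch they were -0.65 to 0.03 for Clec4e, -0.37 to 0.08 for Clec4d and -0.01 to 0.19 for Clec7a, and at high stretch -0.29 to 0.03 for Clec4e and -0.09 to 0.11 for Clec4d. For the interaction they were -0.16 to 0.52 for Clec4e, -0.06 to 0.39 for Clec4d, -0.25 to 0.04 for Clec4n, -0.30 to 0.03 for Clec4a2, -0.06 to 0.34 for Clec4a1 and -0.44 to 0.32 for Clec5a.

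The replicate numbers do not pair the arrays: over 55 pairs with the same number in different groups the median correlation of deviations was 0.02, over 420 other pairs -0.01, and 2 of 35 arrays were closest to an array of their own number. With the replicate number as a block no receptor passed for high stretch in hypercapnia (0; Clec7a 0.34, adjusted p 0.157), and signs turned for Clec4e in normocapnia (-0.17) and, in hypercapnia, for Clec4e (-0.02), Clec4d (-0.13), Clec4a3 (-0.02) and Clec4a1 (-0.07). All genes called in that comparison numbered 1269 with the block and 2017 without.

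Fits of the compared groups only called 1385 genes for low stretch in normocapnia against no ventilation, where all groups together called 2353, and 0 for hypercapnia at low stretch, where they called 23. In the first comparison those fits called 2 of the Card9 and NF-kappaB genes, 2 of the brakes, 1 of the lectins of the same chromosome region and 2 falls among the other lectins. Among genes above the median level 4 of the cytokine and early genes rose with high stretch in normocapnia, as fewer of them were tested, where 7 rose in all. B cell markers that rose with high stretch in hypercapnia numbered 3 with array weights, 8 with the second quantile normalization and 2 among genes above the median level, where 5 rose in all, and in normocapnia 2 among those genes, where 7 rose in all. Among those genes 2 B cell markers fell with low stretch in normocapnia, where 11 fell in all. Dendritic cell markers that rose with high stretch in normocapnia numbered 4 with array weights and with the compared groups only, where 2 rose in all, and T and NK cell markers ran from 0 with the replicate block to 3 with array weights, where 1 rose in all.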

Other observations

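Of the 34 further C-type lectin genes 2 rose and 3 fell with high against low stretch in normocapnia. Over all genes 8.72% rose and 9.56% fell. Sele, the endothelial adhesion receptor E-selectin, went from 6.97 ± 0.25 (log2 signal, SD, n = 5) to 7.77 ± 0.22 (n = 10), a rise of 0.80 ± 0.15 (SE, adjusted p 0.000165 in limma). Clec14a, on endothelium, changed by -0.43 ± 0.14, and Thbd, which encodes thrombomodulin, an anticoagulant receptor of endothelium, by -0.30 ± 0.06. These 3 genes were chosen after their values were seen. The count that rose was 5 with array weights, 4 with arrays centred on their median or normalized by quantiles a second time, and 0 among genes above the median level.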
